A study of Mus musculus with 4 samples.

Results

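Schwann cells are the glia of peripheral nerves, and myelin is the insulating membrane that some of them wrap around axons. Genes of this cell type were followed in RNA from whole mouse aortas, a tissue whose outer coat carries sympathetic nerve fibres. The set was named as 8 genes, Mbp, Pmp22, Prx, Sox10, S100b, Cdh19, Erbb3 and Mal, and its measurements are all probe sets on the array that map to exactly 1 of these symbols. That gave 19 probe sets for 7 genes, out of 34945 probe sets and 18193 genes with exactly 1 symbol. Prx was not analysed here.

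The study compared aortas of mice with a smooth muscle cell specific Smad4 knockout (Smad4-KO) with aortas of their wild-type littermates (WT), both at 6 weeks of age. Smad4 is the Smad protein that TGF-beta and BMP signals have in common on their way to the nucleus. The labels name neither the Cre driver nor the allele. There were 2 arrays of each genotype, numbered 1 and 2 as in the labels, and each array took 400 ng of RNA pooled from 3 to 5 vessels, so differences between animals were averaged within a pool. The values are probe set signals on a linear scale in arbitrary units. In bulk RNA, fewer cells of a type and less RNA per cell cannot be told apart.

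Schwann cells arise from the neural crest. Sox10 is the transcription factor that sets and keeps their identity, and the receptor Erbb3 receives neuregulin from axons, a signal for their survival, growth and myelination. Myelinating cells then make Mbp, Pmp22, Mal and Prx, while cells that only ensheath bundles of thin axons, the common form around sympathetic fibres, keep genes of the immature state such as Ngfr and Ncam1. S100b marks both forms, and Cdh19 is a cadherin of the Schwann cell lineage.

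Arrays of each genotype were alike in scale, with median signals of 133 and 137 in Smad4-KO and 111 and 132 in WT. For the Dap labelling control, the 3′ signal divided by the 5′ signal (the Dap ratio) was 3.62 and 14.1 on Smad4-KO replicates 1 and 2, against 10.02 and 2.96 on WT replicates 1 and 2, so each genotype had an array with a high and an array with a low ratio. The same ratio for beta-actin, a transcript of the sample itself, split the arrays alike. It was 2.83 and 12.8 on Smad4-KO replicates 1 and 2, and 11.4 and 4.19 on WT replicates 1 and 2. Xist, which is made from the inactive X of females, read 6223 and 135 in Smad4-KO and 15192 and 90.0 in WT, so in both genotypes the array numbered 1 was high and the array numbered 2 low, and the labels do not give the sex of the mice. Smad4 itself had lower mean signals in Smad4-KO on its 3 probe sets, none past the test (log2 differences -0.90, -0.43 and -0.40). The part of the gene that was deleted is not given in the sources used here, and a probe set outside it checks nothing. Smooth muscle transcripts were abundant on every array, with Acta2 at 30692 and 39989 in Smad4-KO and 47232 and 57304 in WT and Tagln at 14233 and 16694 in Smad4-KO and 30157 and 37157 in WT.

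Among the Schwann cell and myelin genes, Cdh19 and Mbp rose in Smad4-KO aortas, by 10.7-fold and 3.98-fold. Erbb3 and Mal were also higher on both Smad4-KO arrays, by 2.71-fold and 2.58-fold, without passing the test. Of the others, S100b had a log2 difference of 0.58 and Pmp22 -0.34, and the probe sets of Sox10 disagreed in direction. Each gene was read from its brightest probe set (highest mean over the 4 arrays on the log2 scale), and limma compared the genotypes across the 13645 genes that passed a filter on low signal, with p-values adjusted over all of them and a threshold of 0.05. All 7 measured genes passed the filter, 2 were called higher and 0 lower, and 4 had an unadjusted p under 0.05. Among all genes tested, 4.92% were called higher and 1.39% lower. Both Smad4-KO arrays lay above both WT arrays for 5 of the 7 genes and below for the other 2, against 25.9% and 21.4% of all genes tested. The median log2 difference of the 7 genes was 1.37, beside -0.01 for all genes tested.

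**Figure D1:**
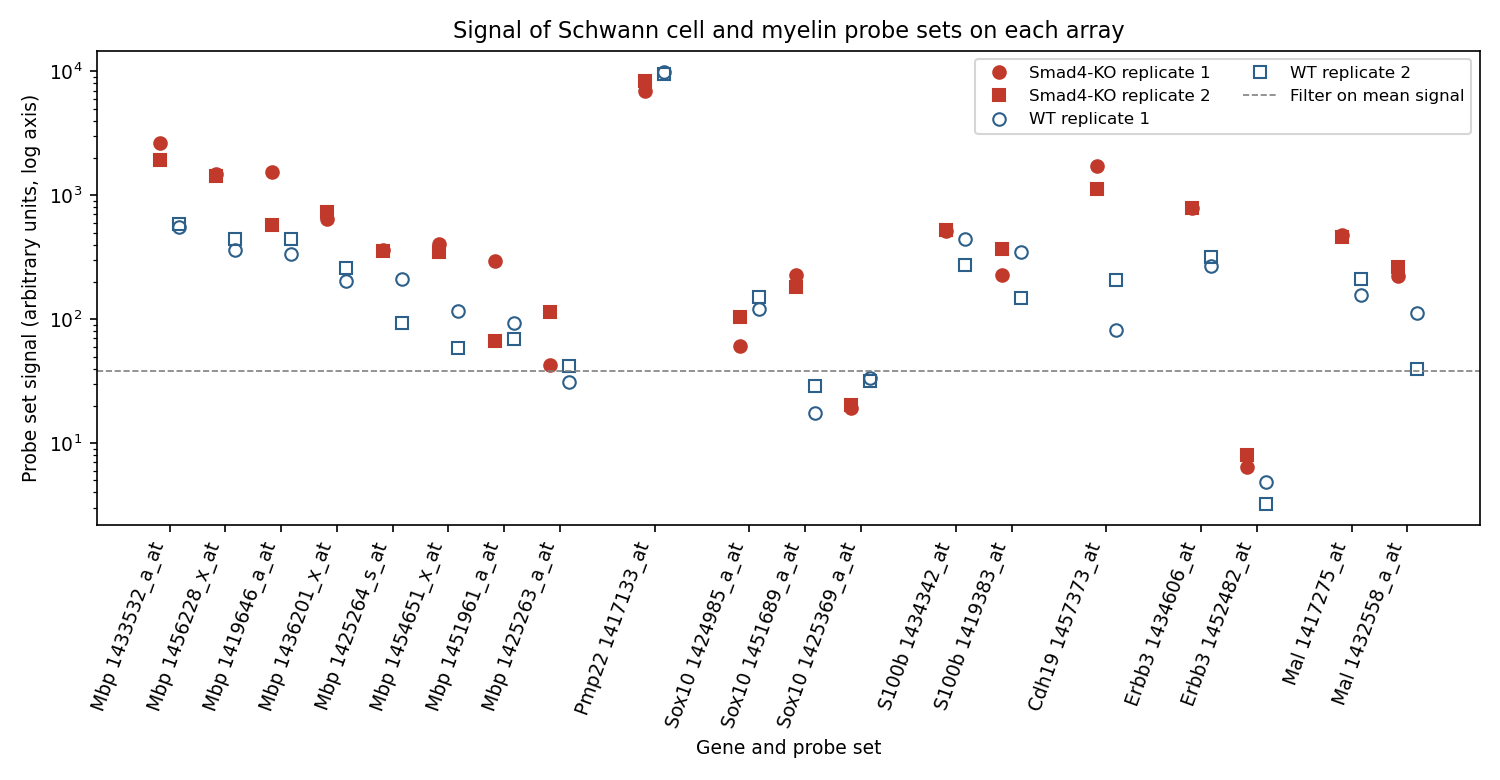
Signal of every probe set of the 7 genes (log axis, arbitrary units) on the 2 Smad4-KO arrays (filled red) and the 2 WT arrays (open blue). Cdh19 lies at 1132 and 1723 in Smad4-KO and at 81.8 and 209 in WT, while Pmp22 lies at 6947 and 8428 in Smad4-KO and at 9820 and 9502 in WT. The dashed line is the filter on mean signal for probe sets (38.2).

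Sox10 gave the least uniform reading. Its brightest probe set, 1424985_a_at, had signals of 61.3 and 104 in Smad4-KO and 120 and 150 in WT. Smad4-KO was lower without overlap, and the log2 difference of -0.74 ± 0.38 (standard error from limma, 2 arrays against 2) did not pass (adjusted p = 0.395, 95% interval -1.70 to 0.21). The probe set 1451689_a_at read 229 and 182 in Smad4-KO against 17.5 and 28.9 in WT. It therefore pointed the other way, and in a limma fit of every probe set its log2 difference was 3.18 ± 0.41, just short of the threshold (adjusted p = 0.0527). Both of its WT signals lay under 64, and with every signal under 64 set to 64 the ratio was at least 3.19-fold. They also lay under the probe set filter of 38.2, so 1451689_a_at was tested only through its Smad4-KO signals. The dimmest, 1425369_a_at, had 19.4 and 20.4 in Smad4-KO and 33.3 and 31.5 in WT and was below the filter. Taking the mean of the Sox10 probe sets turned the gene's log2 difference to 0.58 (adjusted p = 0.508). Around the brightness of its main probe set, replicates of the 500 nearest genes differed with an SD of 1.12 in Smad4-KO and 0.86 in WT on the log2 scale. The genes whose log2 profile over the 4 arrays lay nearest to that probe set, by root mean square distance after centring, were Wwc2 (0.022), Cask (0.032), Zc3h13 (0.037), Stk35 (0.039) and Epm2a (0.040).

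Erbb3, the neuregulin receptor, read 795 and 784 in Smad4-KO and 268 and 317 in WT on probe set 1434606_at. The Smad4-KO arrays nearly coincided and lay above both WT arrays. The log2 difference was 1.44 ± 0.30 with an adjusted p of 0.0555 in limma, so Erbb3 stayed on the far side of the threshold. It passed under 3 of 13 alternative settings (adjusted p from 0.0319 to 0.261), among them a filter at the 50th percentile of signal. Its other probe set, 1452482_at, gave 6.39 and 8.01 in Smad4-KO and 4.89 and 3.24 in WT, below the filter.

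Cdh19 had the largest difference of the 7 genes. Its only probe set, 1457373_at, read 1723 and 1132 in Smad4-KO and 81.8 and 209 in WT, so the lowest Smad4-KO array was well above the highest WT array. The log2 difference was 3.42 ± 0.53 (adjusted p = 0.0274, 95% interval 2.08 to 4.75), and 1.93% of genes tested had a higher one. Within the arrays of high Dap ratio it was 3.79, and within those of low ratio 3.05. The call was lost without Smad4-KO replicate 1 (3.12, adjusted p = 0.0572), without WT replicate 1 (2.74, adjusted p = 0.0751) and without WT replicate 2 (4.09, adjusted p = 0.0612). It was also lost with the pairs of like Dap ratio as a block (adjusted p = 0.0557) and with no filter on low signal (adjusted p = 0.105). Outside the alternatives, it was lost in the limma fit of every probe set (adjusted p = 0.0778). Over 13 alternatives it passed under 8 (adjusted p from 0.0028 to 0.105). The WT arrays differed from each other by 1.35 on the log2 scale, more than the SD of 0.57 among genes of like brightness.

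S100b, a calcium-binding protein that in other tissues is also made by fat cells, had 518 and 521 in Smad4-KO and 440 and 275 in WT on probe set 1434342_at. Its log2 difference of 0.58 ± 0.35 did not pass (adjusted p = 0.493, 95% interval -0.31 to 1.46). On 1419383_at the genotypes overlapped, with 225 and 372 in Smad4-KO and 351 and 149 in WT (log2 difference 0.34 ± 0.56). That difference became -0.02 without Smad4-KO replicate 2 and -0.28 without WT replicate 2. Fat cell transcripts were higher on the array numbered 1 of each genotype. Adipoq, the fat cell hormone adiponectin, read 23589 and 5859 in Smad4-KO and 13468 and 5891 in WT. Fabp4, a fatty acid binding protein, read 33256 and 24140 in Smad4-KO and 41249 and 21528 in WT, and the summed signal of the 4 fat cell markers in the table was 60267 and 30618 in Smad4-KO and 56923 and 28375 in WT. Their part in the S100b signal was not tested.

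Mbp, the myelin basic protein that holds the inner faces of the myelin membrane together, was covered by 8 probe sets. The brightest, 1433532_a_at, read 2665 and 1935 in Smad4-KO and 554 and 587 in WT. Both Smad4-KO arrays exceeded both WT arrays by a factor of more than 3, and the log2 difference was 1.99 ± 0.32 (adjusted p = 0.0298, 95% interval 1.19 to 2.80). It was 1.81 within the arrays of high Dap ratio and 2.18 within those of low ratio. The call was lost without Smad4-KO replicate 1 (1.76, adjusted p = 0.0668), without WT replicate 1 (1.95, adjusted p = 0.131), without WT replicate 2 (2.04, adjusted p = 0.155) and with the mean of the Mbp probe sets (1.50, adjusted p = 0.0828). It was also lost with the pairs of like Dap ratio as a block (adjusted p = 0.0684) and with no filter (adjusted p = 0.103). Outside the alternatives, it was lost for 1433532_a_at in the limma fit of every probe set (adjusted p = 0.0861). Over 13 alternatives it passed under 7 (adjusted p from 0.0137 to 0.155).

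All 8 Mbp probe sets had positive log2 differences, from 0.79 to 2.19, and on 7 of them both Smad4-KO arrays lay above both WT arrays. Probe set 1456228_x_at read 1475 and 1421 in Smad4-KO and 363 and 441 in WT, and 1436201_x_at read 646 and 731 in Smad4-KO and 204 and 257 in WT. On 1454651_x_at the signals were 403 and 351 in Smad4-KO and 117 and 58.5 in WT, the largest ratio of the 8. These and 1425264_s_at (361 and 358 in Smad4-KO, 210 and 93.6 in WT) had replicates close together in Smad4-KO. Another pair of probe sets split the Smad4-KO arrays: 1419646_a_at had 1545 and 576 in Smad4-KO and 335 and 442 in WT, and 1451961_a_at had 293 and 66.4 in Smad4-KO and 93.4 and 69.5 in WT. On both, Smad4-KO replicate 2 was far below Smad4-KO replicate 1, and 1451961_a_at turned to -0.28 without Smad4-KO replicate 1. The Dap ratio was 14.1 on Smad4-KO replicate 2 and 3.62 on Smad4-KO replicate 1. In WT, the array of high ratio, replicate 1, was the lower on 1419646_a_at and the higher on 1451961_a_at. The part of labelling in these splits was not tested. The dimmest, 1425263_a_at, went the other way, with 42.5 and 115 in Smad4-KO against 31.3 and 42.0 in WT. Mbp is also transcribed from an upstream promoter in immune cells, as background, and which transcripts each probe set detects was not analysed here.

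**Figure D2:**
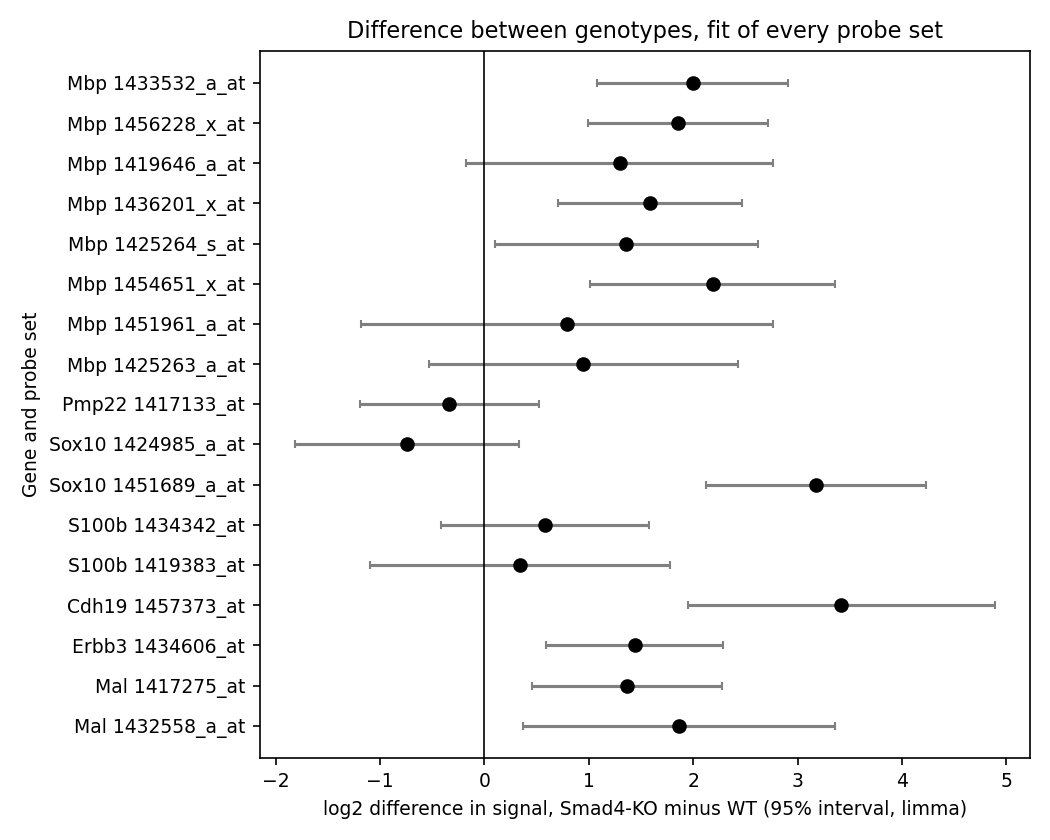
Log2 difference in signal, Smad4-KO minus WT, for the 17 probe sets tested, with 95% intervals from the limma fit of every probe set. The intervals of Cdh19, of both Mal probe sets, of the brighter Erbb3 probe set, of 5 of the 8 Mbp probe sets and of Sox10 1451689_a_at lie above 0, while those of S100b, Pmp22 and the other Sox10 probe set include 0.

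In that fit of 26209 probe sets, which adjusts over more tests, 0 of the 17 tested probe sets of these genes passed in limma and 10 had an unadjusted p under 0.05. The lowest adjusted p was 0.0527, for Sox10 1451689_a_at, which passed the filter only through its Smad4-KO signals. Of all probe sets tested, 0.782% were called. Both Smad4-KO arrays lay above both WT arrays for 13 of the 17 and below for 2, against 22.0% and 20.1% of all probe sets tested. Mbp alone supplied 8 of the 17 and 7 of the 13. Probe sets of the same gene are not independent readings.

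Mal, a small membrane protein of myelin rafts that T cells and some epithelia also make, gave 476 and 462 in Smad4-KO and 156 and 213 in WT on 1417275_at. The genotypes did not overlap, and the log2 difference of 1.37 ± 0.32 did not pass (adjusted p = 0.0759). It passed under 1 of 13 alternatives, the filter at the 50th percentile (adjusted p = 0.0479, in a range of 0.0479 to 0.334). The dimmer 1432558_a_at read 221 and 262 in Smad4-KO and 111 and 39.5 in WT, with WT replicates that differed more than those of Smad4-KO. T cell markers were higher in the same arrays: all 3 tested had higher signals on both Smad4-KO arrays, and Cd3d, a chain of the T cell receptor complex, rose (537 and 438 in Smad4-KO, 124 and 75.0 in WT, log2 difference 2.33 ± 0.37, adjusted p = 0.0293). Cd3g, another chain of it, read 351 and 455 in Smad4-KO and 139 and 45.3 in WT and did not pass (adjusted p = 0.0885). Of all genes tested, 25.9% had both Smad4-KO arrays above both WT arrays, and 4.92% were called higher. The summed signal of the 4 T cell markers in the table was 1372 and 1114 in Smad4-KO and 388 and 188 in WT, with none at 0, and their part in the Mal signal was not tested.

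Pmp22, a membrane protein of compact myelin that fibroblasts and many other cells also express, had the smallest difference of the 7 genes. It read 6947 and 8428 in Smad4-KO and 9820 and 9502 in WT on its only probe set, 1417133_at. Both Smad4-KO arrays were below both WT arrays, yet the log2 difference was only -0.34 ± 0.30 (adjusted p = 0.677, 95% interval -1.09 to 0.42), which leaves room for a fall of 1.09 or a rise of 0.42. In rodents Pmp22 is transcribed from alternative promoters, of which an upstream promoter is used mainly by myelinating Schwann cells. RefSeq (GRCm38.p6) lists 4 starts for Pmp22 among its promoter windows, and a single probe set does not separate them. The 250 bases before the most upstream start and before a start further downstream are shown, both on the plus strand of chromosome 11. They have 48.8% and 64.8% G and C, and the Pmp22 windows not shown have 61.2% and 73.6%. All letters are in lower case because they held none of the core letters searched for below.
Pmp22 upstream start, chr11:63128732-63128981: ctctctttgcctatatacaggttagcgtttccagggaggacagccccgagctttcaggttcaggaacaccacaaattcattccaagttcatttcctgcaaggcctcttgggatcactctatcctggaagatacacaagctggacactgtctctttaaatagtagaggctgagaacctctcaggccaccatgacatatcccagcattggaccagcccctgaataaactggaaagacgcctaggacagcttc
Pmp22 downstream start, chr11:63132319-63132568: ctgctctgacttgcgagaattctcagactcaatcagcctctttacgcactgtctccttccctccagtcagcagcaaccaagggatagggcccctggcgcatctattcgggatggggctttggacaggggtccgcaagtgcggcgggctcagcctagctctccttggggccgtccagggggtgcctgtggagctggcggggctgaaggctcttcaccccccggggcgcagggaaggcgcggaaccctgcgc
Core letters bound by SOX proteins, ACAAAG and ACAAT on either strand, were searched in the 250 bases before each start listed for Mal, S100b and Pmp22, the 3 measured genes with an entry in that table. None of these 6 windows held either, and 38.8% of 32851 windows of that length did. The absence says only that these letters are not in those windows.

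Other genes of the Schwann cell were read from 4 lists. The list of the non-myelinating and immature state moved most, with 8 of 16 tested genes higher and 1 lower in Smad4-KO. Among all genes tested, 4.92% were called higher and 1.39% lower. Ngfr, the low-affinity neurotrophin receptor, read 1584 and 1491 in Smad4-KO and 113 and 66.9 in WT (log2 difference 4.14 ± 0.37, adjusted p = 0.0125). Chl1, a cell adhesion protein, read 4086 and 4395 in Smad4-KO and 185 and 320 in WT (4.12 ± 0.38, adjusted p = 0.0125). Gap43, a protein of growing axons and immature glia, had 2097 and 1414 in Smad4-KO and 113 and 49.2 in WT. Apod, a lipid carrier abundant in peripheral nerve, had 5926 and 7006 in Smad4-KO and 938 and 589 in WT. Their signals did not overlap between the genotypes. The gene that fell was Ncam1, a cell adhesion molecule of neurons, muscle and immature Schwann cells, with 1801 and 2018 in Smad4-KO and 8452 and 10759 in WT (-2.32 ± 0.31, adjusted p = 0.0202, named after its value was seen). The median of the list was 2.14. Several of its genes, Gap43, L1cam and Ngfr among them, are also expressed by neurons.

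The list of myelin structure, paranodes and myelin lipids had 18 genes in the table, of which 14 were tested, 2 rose and 0 fell. Of all genes tested, 4.92% rose and 1.39% fell. Cnp, a myelin-associated enzyme also present outside glia, read 2111 and 2937 in Smad4-KO and 720 and 501 in WT (2.05 ± 0.36, adjusted p = 0.0361). Mpp6, a membrane scaffold protein, read 2102 and 2078 in Smad4-KO and 708 and 707 in WT (1.56 ± 0.29, adjusted p = 0.0410). Cadm4, the adhesion protein on the Schwann cell side of the axon contact, had 598 and 1159 in Smad4-KO and 225 and 190 in WT and did not pass (adjusted p = 0.0550). Ugt8a, which makes galactosylceramide, had 80.0 and 79.2 in Smad4-KO and 42.5 and 35.8 in WT (adjusted p = 0.130). Both WT signals of Ugt8a lay under the gene filter on low signal, so it was tested only through its Smad4-KO signals. Of the 14 genes, 8 had both Smad4-KO arrays above both WT arrays and 2 below. Among all genes tested, 25.9% and 21.4% did. Those 2, named after their values were seen, did not pass in limma. Tspan2 read 1343 and 467 in Smad4-KO and 2342 and 4621 in WT (-2.05 ± 0.62, adjusted p = 0.141). Mag read 40.6 and 36.2 in Smad4-KO and 94.4 and 55.3 in WT (-0.92 ± 0.37, adjusted p = 0.270). The list's median was 0.81, and Gjb1, Gjc3, Cldn19 and Pmp2 were below the filter.

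Of 12 lineage transcription factors, 10 were tested and 1 rose, beside 4.92% of all genes tested. Foxd3, a neural crest and early glial factor, read 163 and 184 in Smad4-KO and 47.8 and 39.7 in WT (1.99 ± 0.30, adjusted p = 0.0263). Sox2, a factor of immature Schwann cells, had 153 and 134 in Smad4-KO and 10.4 and 40.8 in WT (2.79 ± 0.66, adjusted p = 0.0786). The promyelinating Pou3f1 had 67.6 and 84.7 in Smad4-KO and 34.1 and 41.1 in WT, and Egr2, the activator of myelin genes, 228 and 529 in Smad4-KO and 101 and 140 in WT. Neither passed in limma (adjusted p = 0.152 and 0.159). On both, the Smad4-KO arrays lay above the WT arrays without overlap, as for 25.9% of all genes tested. Both WT signals of Foxd3, of Sox2 and of Pou3f1 lay under 64, so the sizes of their differences rest on dim values. They also lay under the gene filter on low signal, so Foxd3, Sox2 and Pou3f1 were tested only through their Smad4-KO signals. The list's median was 0.69.

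Of 15 genes of neuregulin and other axon-glia signalling, 12 were tested and 0 passed in limma, with 5 at an unadjusted p under 0.05, 3 of them higher. Adgrg6, a receptor that Schwann cells need to start myelination, had 454 and 410 in Smad4-KO and 78.9 and 188 in WT (1.83 ± 0.48, adjusted p = 0.100). Adam22, a binding partner of the secreted glial protein Lgi4, had 870 and 656 in Smad4-KO and 360 and 385 in WT (adjusted p = 0.150). Lower on both Smad4-KO arrays were the laminin chain Lama2, with 704 and 1272 in Smad4-KO and 2088 and 2140 in WT (adjusted p = 0.180), and dystroglycan, Dag1, with 2823 and 2946 in Smad4-KO and 5578 and 4979 in WT (adjusted p = 0.184). Both also belong to the link between muscle cells and their basement membrane. Nrg1, Nrg3 and Erbb4 were below the filter. The list's median was 0.53, against -0.01 for all genes tested.

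**Figure D3:**
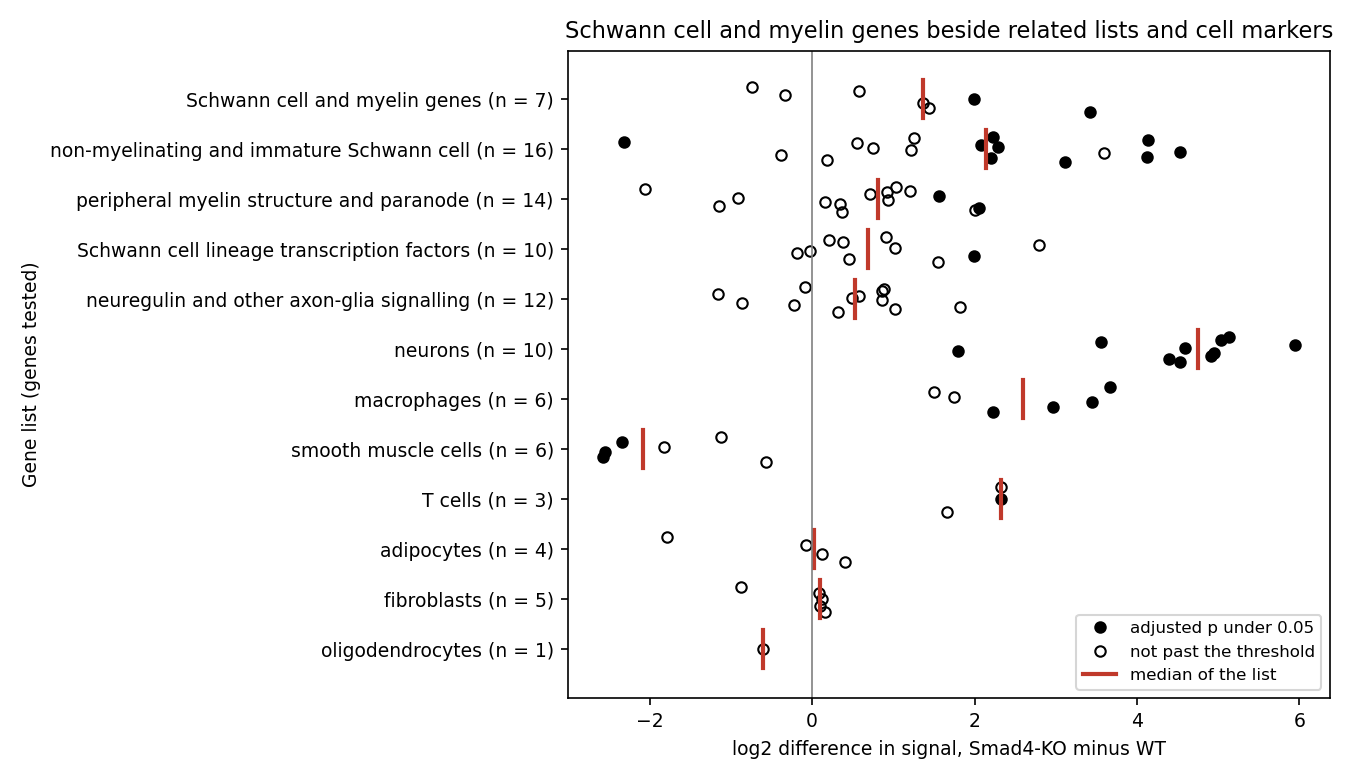
Log2 differences, Smad4-KO minus WT, for the tested genes of each list, with filled points for adjusted p under 0.05 and a red bar at the median. The 7 Schwann cell and myelin genes have a median of 1.37, the immature Schwann cell list 2.14, neuronal markers 4.75, macrophage markers 2.60 and smooth muscle markers -2.08.

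Markers of other cells moved in the same arrays. Of 10 neuronal markers in the table all 10 rose, with a median log2 difference of 4.75, and their summed signal was 34887 and 26365 in Smad4-KO and 1386 and 1204 in WT, with none at 0. Th, the enzyme that starts noradrenaline synthesis, read 4109 and 3640 in Smad4-KO and 111 and 126 in WT, and Snap25, a synaptic release protein, 7332 and 4675 in Smad4-KO and 68.0 and 132 in WT. Stmn2, a regulator of microtubules in neurons, read 7501 and 3620 in Smad4-KO and 472 and 411 in WT. The neuronal median was thus above the value of each of the 7 Schwann cell and myelin genes. Of 6 macrophage markers 4 rose, with a summed signal of 28657 and 42222 in Smad4-KO and 8774 and 5666 in WT, and Ptprc, the phosphatase of all white blood cells, read 8667 and 11348 in Smad4-KO and 820 and 747 in WT. Csf1r, the growth factor receptor of macrophages, read 9588 and 22040 in Smad4-KO and 6029 and 3087 in WT and did not pass (adjusted p = 0.154). The 6 smooth muscle markers, of which 3 fell, summed to 57397 and 65834 in Smad4-KO and 117139 and 144366 in WT. Beside these counts, 4.92% of all genes tested rose and 1.39% fell. The part of neurons, macrophages and smooth muscle cells in the values of the Schwann cell genes was not tested.

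Most markers of other Sox10- or myelin-expressing cells lay below the filter on low signal. The 6 oligodendrocyte markers summed to 154 and 126 in Smad4-KO and 273 and 195 in WT, and only Opalin passed the filter, with 41.0 and 59.3 in Smad4-KO and 77.5 and 72.7 in WT. The 5 melanocyte markers summed to 321 and 188 in Smad4-KO and 308 and 277 in WT, and of these Dct had 167 and 63.98 in Smad4-KO and 129 and 98.0 in WT and Mlana 38.4 and 46.2 in Smad4-KO and 112 and 31.7 in WT. Dct thus exceeded the array median on Smad4-KO replicate 1 (133), and Dct and Mlana did so on WT replicate 1 (111). Of 4 epithelial markers tested, 1 rose, Cdh1 (E-cadherin), with 352 and 303 in Smad4-KO and 31.7 and 24.9 in WT (3.54 ± 0.31, adjusted p = 0.0125, named after its value was seen). Its WT signals lay under 64, so the size of its difference rests on dim values. They also lay under the gene filter on low signal, so Cdh1 was tested only through its Smad4-KO signals. Epcam, with 262 and 502 in Smad4-KO and 712 and 354 in WT, overlapped between the genotypes, as did Krt18, with 800 and 172 in Smad4-KO and 799 and 450 in WT. Fibroblast markers had a median log2 difference of 0.10, with Dcn at 27561 and 36872 in Smad4-KO and 25898 and 34082 in WT, Lum at 18628 and 22318 in Smad4-KO and 17283 and 20167 in WT, and 0 of 5 passed in limma (0 at an unadjusted p under 0.05). Differences were positive for 4 and negative for Pi16, named after its value was seen. Pi16 read 3385 and 5590 in Smad4-KO and 9637 and 6583 in WT (-0.87 ± 0.40, adjusted p = 0.328). Of 5 endothelial markers limma called 0, with 3 differences positive, 2 negative and a median of 0.31. Only Kdr, named after its value was seen, had an unadjusted p under 0.05. It read 1644 and 976 in Smad4-KO and 545 and 424 in WT (log2 difference 1.40, adjusted p = 0.113). The junction protein Pecam1, with 2890 and 628 in Smad4-KO and 2296 and 3699 in WT, overlapped between the genotypes. The receptor Tek, with 1335 and 851 in Smad4-KO and 1531 and 1469 in WT, was lower on both Smad4-KO arrays and did not pass (adjusted p = 0.572).

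**Figure D4:**
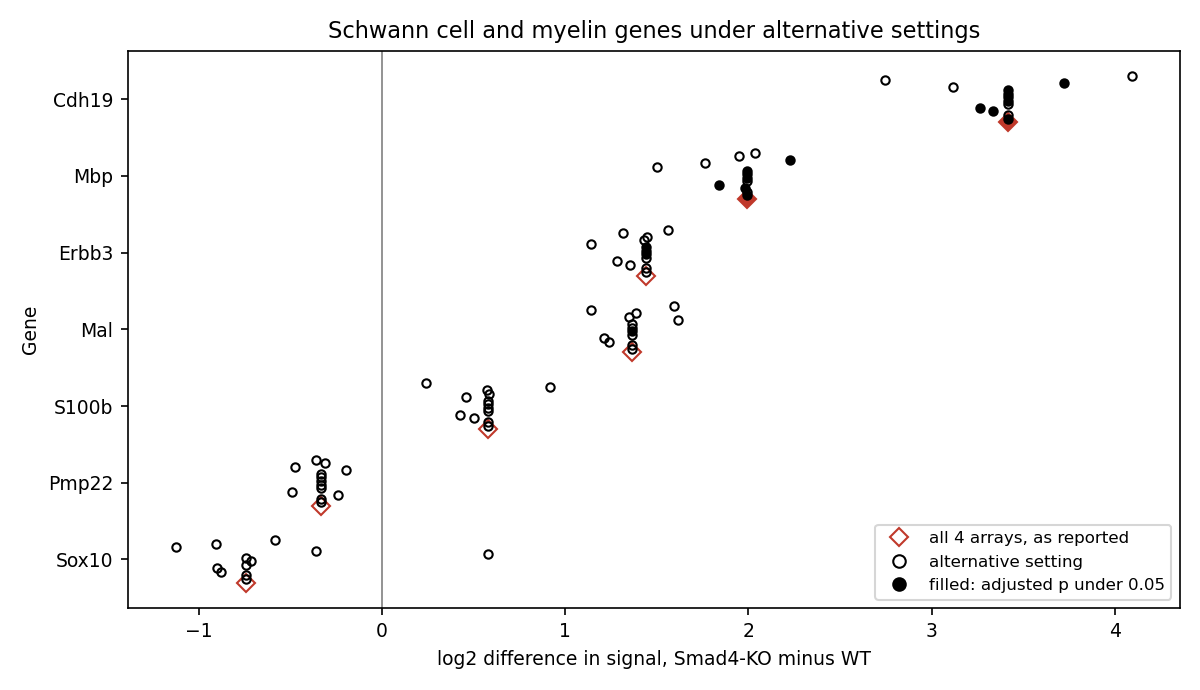
Log2 difference of each of the 7 genes, Smad4-KO minus WT, with all 4 arrays (red diamonds) and under each alternative setting (circles), filled where the adjusted p was under 0.05. Cdh19 stayed between 2.74 and 4.09 and Mbp between 1.50 and 2.23 over 13 alternatives each, while Sox10 lay between -1.13 and 0.58 over 12.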

How the data were processed

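Arrays of 2 Smad4-KO and 2 WT aorta pools were analysed, grouped by their titles. The authors deposited linear intensity values per probe set. Affymetrix Expression Console and RMA are named, per the submitters' processing notes, with no version. RMA output would be logarithms of like distribution; these values are linear and their 2% trimmed mean is 500.0 on each array, as MAS5 scaling gives. No detection calls were used, and the genome build is not given in the sources used here.

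Of 45101 probe sets, 64 are controls, 932 have several symbols and 9160 none; 34945 with 1 symbol were used. Values were taken to log2. Genes (brightest probe set) or probe sets with a mean below the 25th percentile (log2 5.64 and 5.25) were left out. limma 3.58.1 (R 4.3.3; lmFit, eBayes, two-sided, genotype only) was adjusted by Benjamini-Hochberg over all features tested. The labels call the arrays biological replicates, and their number limits precision. In simulated data with 200 of 13645 genes changed, 0%, 2%, 52% and 88% of log2 changes of 1, 2, 3 and 4 were recovered. The simulation gave 71 calls and the arrays 861. The adjustment depends on how many genes change, so these shares need not hold for the arrays. Same-numbered arrays did not deviate together across genes (correlation -0.01), although Xist and fat cell transcripts split the arrays by number; the labels tie the number to nothing shared, so the replicate block is an alternative. Alternatives were other normalizations, filters, a floor of 64, blocks, moderated variance settings, the mean of probe sets and leaving out each array. From each list the 4 genes of lowest unadjusted p were named, from each marker list the 2 of highest mean signal, and Th, Snap25, Adipoq, Ptprc and Smad4 whatever their result. The genes, lists and rules were chosen with earlier results of these data known. Figures used Python 3.11.15 and matplotlib 3.10.9.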

Additional observations from a re-analysis of the deposited data

How the results depend on the processing

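The number of genes called was 861. It was 1321 with the replicate block, 518 when probe sets of a gene were averaged, 0 with a block for the labelling-control pairs (2658 at an unadjusted p under 0.05) and 0 with no filter (2788), and it ranged from 0 to 808 when an array was left out (270 without WT replicate 1, and 0, with 1791 at an unadjusted p under 0.05, without WT replicate 2). Of the Schwann cell and myelin genes 2 were called. The count was 4 with a filter at the 50th percentile, 1 with the mean of probe sets, 0 with the labelling-control block, 0 with no filter, and 0 to 2 when an array was left out. It was 3, Erbb3 added, with signals below 64 raised to 64 and with trend and robust variances, and 2 with the replicate block. Of their probe sets 0 passed, but 3 did with a filter at the 50th percentile and 3 with trend and robust variances. Sox10 turned to 0.58 with the mean of probe sets. With an array left out, S100b 1419383_at lay between -0.28 and 0.96, and Mbp 1451961_a_at between -0.28 and 1.86. With arrays centred on their medians, the typical difference over all genes became -0.16, with 2 of these genes still called. Counts with another filter rest on another number of tests and those without an array on fewer arrays. The cause of the other changes was not tested.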

Other observations

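The genes whose profile over the 4 arrays lay nearest to that of Cdh19, a comparison chosen after its values were seen, were Frrs1l (root mean square distance 0.12), Fbn2 (0.19), Ap3b2 (0.22), Tm4sf4 (0.24) and Nrsn1 (0.25). Fbn2, a fibrillin of developing microfibrils, read 759 and 485 in Smad4-KO and 31.0 and 66.0 in WT, and Nrsn1, a neuronal membrane protein, 617 and 389 in Smad4-KO and 39.1 and 61.3 in WT. Skeletal muscle markers were high on a single array: Acta1, the skeletal muscle actin, read 248 and 1989 in Smad4-KO and 87.4 and 64.7 in WT, Myh2, a myosin of fast fibres, 85.6 and 1200 in Smad4-KO and 64.7 and 10.8 in WT, and the 6 markers summed to 593 and 4920 in Smad4-KO and 447 and 358 in WT. Between Smad4-KO replicates 2 and 1, Mbp, Cdh19, Erbb3 and Mal differed by -0.46, -0.61, -0.02 and -0.04 on the log2 scale, and Sox10, Pmp22 and S100b by 0.77, 0.28 and 0.01.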
